A study of Mus musculus with 5 samples.

Results

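The nuclear genes of the mitochondrial respiratory chain were followed in ribosome-bound RNA of Drd2 neurons from the central amygdala (CeA) of the mouse. They were chosen by name as every row whose symbol starts with Nduf, Uqcr or Atp5, or with Cox and a digit from 4 to 8, together with Sdha, Sdhb, Sdhc, Sdhd and Cyc1. This rule took 91 of the 15093 genes listed. Of these 91, 88 had a mean value of at least 1 and were tested, and Cox7a1, Cox8b and Atp5l-ps1 did not reach that mean. By role they were 7 core and 29 accessory subunits and 4 assembly factors of complex I, 4 subunits of complex II, 9 of complex III, 18 of complex IV and 15 of the ATP synthase. Ndufa4 and Ndufa4l2 were counted with complex IV, where the Ndufa4 protein is found. The name rule also took 5 rows that are not subunits of the chain or are pseudogenes: the pseudogenes Atp5l-ps1 and Atp5l2 (Atp5l2-ps in RefSeq), and Atp5s (Dmac2l), Atp5sl (Dmac2) and Cox4nb (Emc8).

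The study asked which translated transcripts of CeA Drd2 neurons differ following fear conditioning. Translating ribosome affinity purification (TRAP) was made from 5 libraries, 3 labelled Fear conditioning (replicates 2, 3 and 4) and 2 labelled Home Cage (replicates 6 and 7). Each library was a pool of bilateral CeA punches of 1 mm from 3 animals, taken 2 h after the session. All animals, controls included, were Drd2-TRAP mice of 8 to 12 weeks. In these mice a Drd2-Cre bacterial artificial chromosome transgene (line ER43) releases an EGFP-tagged ribosomal protein, Rpl10a, that is driven by the CAG promoter from the Rosa26 locus, so any cell in the punch that has expressed the Cre can contribute. Fear conditioned mice received 5 pairings of a tone with a foot shock of 0.65 mA. The labels call the controls home cage animals and the session extinction, whereas the study's results describe controls given the tone without shock and a collection after conditioning, and these readings cannot be told apart here. The sex of the animals is not given in the sources used here.

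The respiratory chain passes electrons from NADH (complex I) and succinate (complex II) through complex III and cytochrome c to oxygen (complex IV), and complexes I, III and IV pump protons that the ATP synthase uses to make ATP. A few core subunits are encoded in mitochondrial DNA and the rest by nuclear genes, whose proteins are imported into the organelle. Neurons depend heavily on this pathway, and some subunits exist as isoforms from separate genes, with forms known from heart and skeletal muscle or from testis beside widespread ones.

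Values are read counts that the authors scaled to a common library size, written as CPM because a library sums to between 932938 and 1042030, and each was a whole multiple of the value of 1 read. Reads on genes numbered between 19988438 and 25022225 in Fear conditioning and 27937520 and 19605318 in Home Cage replicates 6 and 7. A floor of 3 reads equalled 0.10 to 0.158 CPM, and floors and intervals cover counting error only. The control libraries stood apart from each other: 976 genes were listed at 0 in replicate 6 and 2681 in replicate 7, against 159 to 349 in Fear conditioning. Marker genes of Drd2 striatal-type neurons (Drd2, Adora2a, Penk and Gpr6, with 4 of 5 fixed markers found) were present in every library, with a summed level of 15033 to 17120 CPM in Fear conditioning, 6421 in Home Cage replicate 6 and 9284 in replicate 7. Most of each sum was Penk, while Drd2 itself measured 326 to 555 CPM in Fear conditioning and 128 and 262 CPM in the controls. All 6 choroid plexus markers were found, and they summed to 6.55 to 33.1 CPM in Fear conditioning but to 960.0 and 1351 CPM in the controls, nearly all of it Ttr. Of them Aqp1 and Otx2 were at 0 in Home Cage replicate 7, Folr1 and Kcnj13 in Fear conditioning replicate 2 and Aqp1 in replicates 3 and 4. All 5 oligodendrocyte markers were found, none at 0, and they summed to 1058 to 2399 CPM in Fear conditioning, 2322 in Home Cage replicate 6 and 4831 in replicate 7. All 5 astrocyte markers were found, none at 0, with sums of 206 to 247 CPM in Fear conditioning and of 562 and 473 CPM in the controls, although Aldh1l1 was at 1.21 CPM in replicate 7 against 12.6 to 15.2 CPM in Fear conditioning. The 5 mural cell markers summed to 15.4 to 35.6 CPM against 86.3 and 71.9 CPM, with Kcnj8 at 0 in both controls and in Fear conditioning replicate 3 and Abcc9 at 0 in Home Cage replicate 7. The 5 endothelial markers summed to 6.91 to 30.7 CPM in Fear conditioning, 27.2 in Home Cage replicate 6 and 161 in replicate 7, nearly all of the last Ly6c1, with Tek at 0 in both controls. The 5 microglial markers summed to 39.5 to 88.3 CPM against 113 and 91.1 CPM, and the 5 ependymal markers to 2.42 to 2.79 CPM against 11.3 and 6.38 CPM, with Ccdc153, Tmem212 and Rarres2 at 0 in replicate 7 and Tmem212 in Fear conditioning replicates 2 and 4. The part of these other cell types in the values of the respiratory chain genes was not tested, and in such pooled RNA fewer cells of a type cannot be told apart from less RNA per cell.

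Respiratory chain genes were among the more abundant ribosome-bound transcripts in every library. Levels can be compared between genes only per length, here as CPM per kilobase of the deposited gene length. The median of the 90 genes with a usable length was 269, 195 and 192 CPM per kilobase in Fear conditioning replicates 2, 3 and 4, and 155 and 284 CPM per kilobase in Home Cage replicates 6 and 7, while that of all genes lay between 4.02 and 5.02. In each library between 83 and 85 of the 90 genes were above the median of all genes. Together they took 4.01%, 2.96% and 3.14% of the reads in Fear conditioning, 2.49% in Home Cage replicate 6 and 5.25% in replicate 7, each with a 95% Wilson interval at most 0.0198 percentage points wide. The lowest and the highest share were therefore both found in control libraries, and all 3 Fear conditioning libraries lay between them.

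On the scale of CPM per kilobase, Cox4i1 was the highest gene in all 3 Fear conditioning libraries (2723, 2022 and 2164) and in Home Cage replicate 6 (1383), each time followed by Ndufa4 (2579, 1730 and 1851, and 1248). In Home Cage replicate 7 the order was Cox8a (4984), Ndufa4 (4633) and then Ndufa1 and Cox4i1 (2817 and 2789). Averaged over the 5 libraries, to which replicate 7 gives the most, Ndufa4 (2408), Cox4i1 (2216), Cox8a (2064), Cox6a1 (1531), Cox6b1 (1256) and Ndufa1 (1222) stood highest, all of them small proteins of complexes IV and I. At the other end, beside the pseudogene rows Atp5l-ps1 (1.80) and Atp5l2 (6.80), stood genes known as muscle or testis forms and close relatives of them: Cox7a1 (1.71), Cox8b (1.78), Cox7b2 (2.66), Cox6b2 (3.25), Ndufa4l2 (5.24) and Cox6a2 (13.3). These 6 genes form a low group of complex IV, while the widespread partner of each pair was high. Complex IV had the highest median per kilobase of all roles in Fear conditioning, between 317 and 428 with genes at 0 included, and in Home Cage replicate 7 (897), whereas in replicate 6 complex III (227) stood above it (197). The other medians in Fear conditioning were 275 to 371 for the ATP synthase, 248 to 328 for complex III, 178 to 251 for complex I accessory subunits, 158 to 187 for complex II, 149 to 171 for complex I core subunits and 56.9 to 63.7 for its assembly factors. The ranges of complex IV and the ATP synthase overlapped, as did those of complex II and both kinds of complex I subunit, so these ranges do not separate neighbours. Within each Fear conditioning library complex IV stood above the ATP synthase (428 and 371, 317 and 285, and 333 and 275). Complex I accessory subunits and complex II changed order between these libraries. For Atp5c1 the deposited length is below 0, and no value per kilobase is given.

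Promoters are shown because nuclear respiratory factor 1 (NRF-1) and ETS-type factors are classical regulators of this gene set. RefSeq promoter windows (GRCm38.p6, 250 bases before to 50 after the start, 300 in all) were matched for 74 of the 91 genes, with 80 windows. The NRF-1 letters, GCGCA then any base then GCGC, searched on both strands, were found in 19 of the 80 windows (23.8%), against 4.60% of all 32851 windows and 9.47% of the windows of tested genes. The ETS letters CCGGAAG were in 21.3% of windows, against 8.86% of all and 15.7% of those of tested genes, and the YY1 letters ATGGCGG were in 16.3%, against 4.05% and 7.38%. The TATA box letters TATAAA were in 8 of the 80 windows, against 13.6% of all and 7.05% of those of tested genes. None of these strings contains another, although neighbouring matches can share bases. Atp5h, Atp5k, Cox6a1 and Sdhd held both the NRF-1 and the ETS letters. The 5 upstream sites with the exact palindrome of the NRF-1 letters are printed below 5′ to 3′ on the gene's strand with the match in capitals, and a match is a description of letters only. They lie at chr15:102671055-102671114 (minus strand) for Atp5g2, chr5:108434415-108434474 (minus) for Atp5k, chr5:115349086-115349145 (minus) for Cox6a1, chr17:56717677-56717736 (plus) for Ndufa11 and chr4:24897945-24898004 (plus) for Ndufaf4.
Atp5g2: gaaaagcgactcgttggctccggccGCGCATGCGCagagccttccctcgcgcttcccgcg
Atp5k: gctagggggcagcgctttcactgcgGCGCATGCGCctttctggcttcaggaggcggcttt
Cox6a1: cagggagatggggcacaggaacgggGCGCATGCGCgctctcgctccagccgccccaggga
Ndufa11: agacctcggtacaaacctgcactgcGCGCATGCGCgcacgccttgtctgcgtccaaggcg
Ndufaf4: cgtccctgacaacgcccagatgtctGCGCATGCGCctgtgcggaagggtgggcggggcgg

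The 18 genes with the NRF-1 letters had a median log2 fold change between groups of -0.00, and the 54 tested genes with a window but without them -0.03. Their log2 difference between Home Cage replicates 7 and 6 had a median of 1.04 with the letters and 1.27 without. The medians with and without the NRF-1 letters were close. For the ETS letters the median difference between the controls was 1.28 with them and 1.19 without. For the YY1 letters it was 1.53 with them and 1.19 without. The part of any of these letters in the levels was not tested.

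No respiratory chain gene passed the test of Fear conditioning against Home Cage. A call needed a limma adjusted p under 0.05 together with a log2 fold change beyond 0.5 in either direction. This held for 0 of 88 genes and for 0.0% of the 13560 genes tested. The smallest adjusted p among them was 0.248 (limma, Cox7a2l). At an unadjusted p under 0.05, 3 genes were higher (Cox7a2l, Ndufs8 and Ndufaf1) and 0 lower, while 9.49% of all genes were higher and 7.32% lower. On the recovered reads, edgeR called 0 of the 88 (0.0% of all genes) and DESeq2 also 0 (7.5% of all genes). The median log2 fold change of the 88 genes was -0.03, beside 0.08 over all genes, with 41 values above 0 and 47 below. DESeq2 and edgeR, which scale the libraries anew, put these medians at -0.18 beside -0.11 and at -0.14 beside -0.07, so the genes stayed near the median of all genes. All 3 Fear conditioning libraries were above both controls for 14 genes (15.9%, against 20.2% of all genes) and below both for 1 gene, Cox6a2 (1.14%, against 16.1%).

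**Figure D1:**
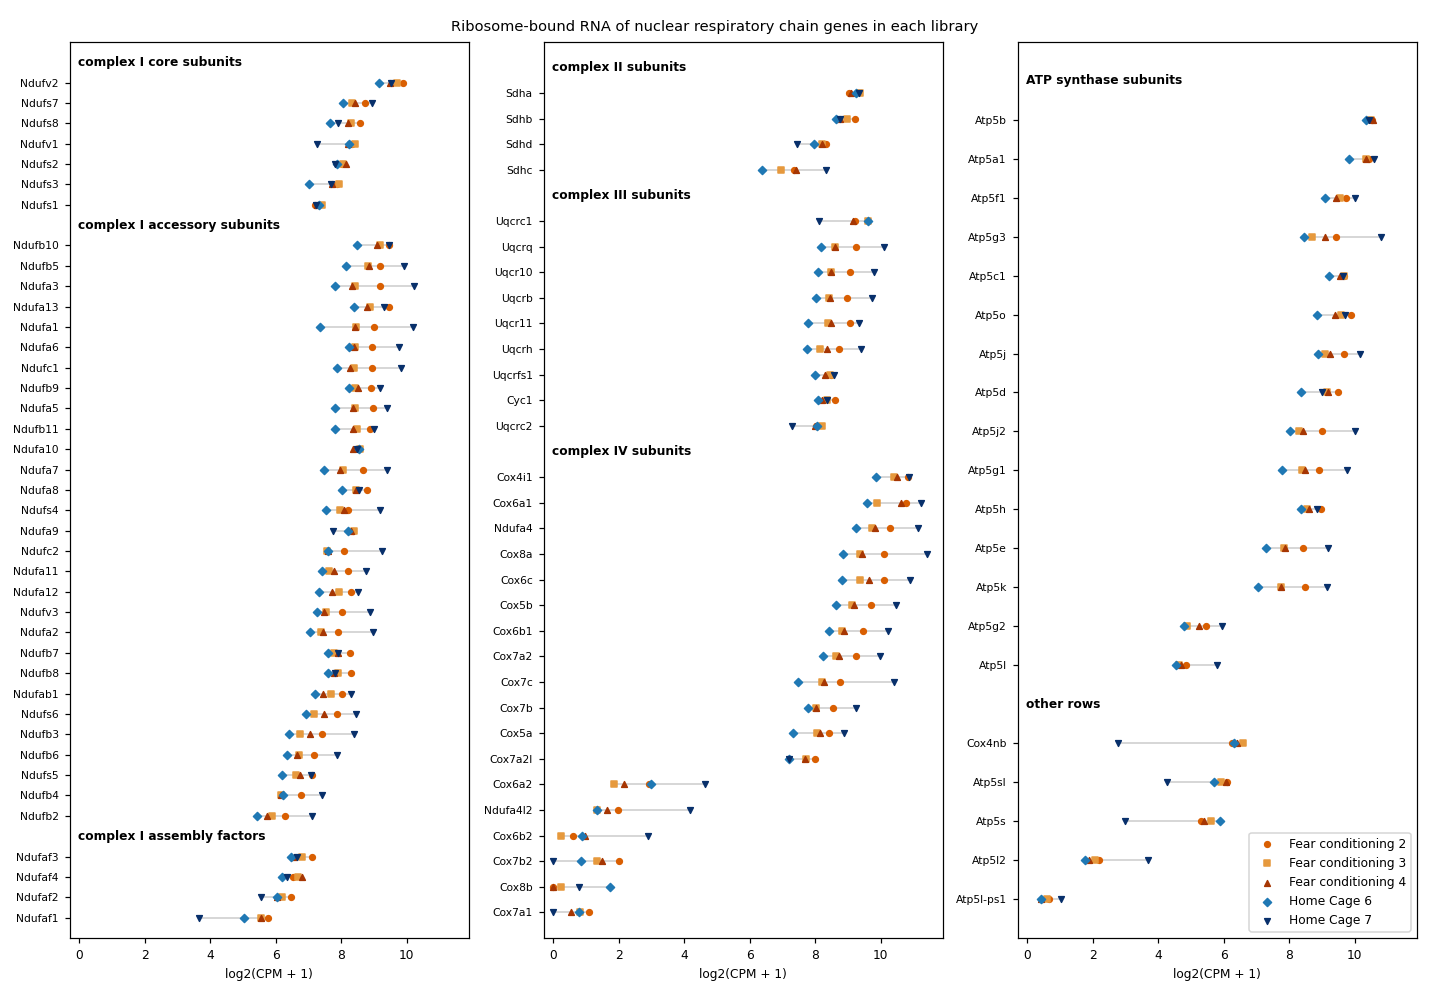
Level of each of the 91 genes in each library, as log2(CPM + 1), arranged by role and by mean level. In most rows Home Cage 6 (light blue diamond) is at the left and Home Cage 7 (dark blue triangle) at the right, with the 3 Fear conditioning libraries (orange) between them.

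The larger difference lay between the control libraries. In the plot of levels by library, Home Cage replicate 6 was the lowest of the 5 libraries for 68 of the 88 genes (77.3%, against 22.4% of all genes), and Home Cage replicate 7 the highest for 54 (61.4%, against 31.9%). For 49 genes (55.7%) both held at once, so that the Fear conditioning libraries lay between the controls, whereas 12.9% of all genes had this order. The opposite order, replicate 7 lowest and replicate 6 highest, was seen for 2 genes, Uqcrc1 and Atp5s (2.27%, against 19.9% of all genes). Replicate 7 was above replicate 6 for 74 of the 88 genes (84.1%, against 43.3%). The median log2 difference, replicate 7 minus replicate 6, was 1.20, beside -0.20 over all genes. Without regard to sign the median was 1.40 for the 88 genes and 1.08 over all genes. The controls thus differed widely for genes in general, and the members differed from them more in direction than in size. Among the 3 Fear conditioning libraries the median range of a gene was 0.51 log2 units, beside 0.44 over all genes.

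**Figure D2:**
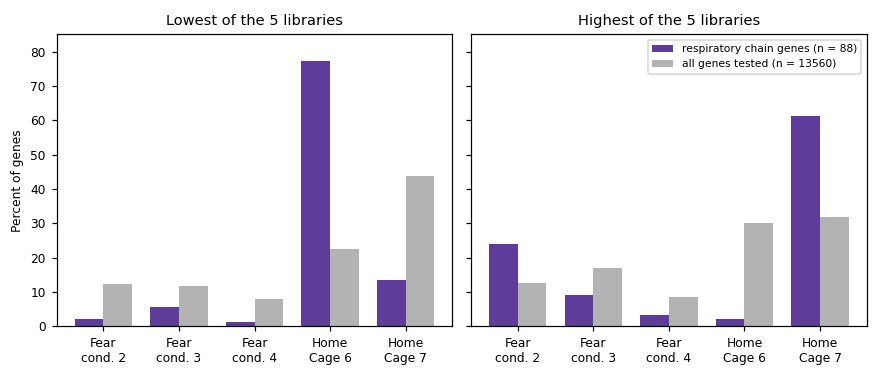
Percent of genes for which each library held the lowest (left) or the highest (right) value of the 5, for the 88 respiratory chain genes (purple) and all 13560 genes tested (grey), with ties left out. Home Cage 6 was lowest for 77.3% and Home Cage 7 highest for 61.4% of respiratory chain genes.

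The direction between groups accordingly depended on which control was used. Against Home Cage replicate 6 alone, all 3 Fear conditioning libraries were higher for 75 of the 88 genes and lower for 3, while over all genes these shares were 37.3% and 40.7%. Against replicate 7 alone, they were higher for 19 and lower for 54 genes, while over all genes the shares were 50.2% and 37.3%. The median log2 fold change was 0.54 without replicate 7, beside -0.03 over all genes, and -0.67 without replicate 6, beside 0.23 over all genes. With 1 control library, which limma then assumes to vary like the Fear conditioning libraries, 7 of the 88 genes were called without replicate 7 (24.8% of all genes) and 53 without replicate 6 (58.7% of all genes).

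The core subunits of complex I, which carry its flavin and iron-sulfur clusters and are conserved from bacteria, had a narrow gap between the controls. Their median log2 fold change was 0.37, with 6 of 7 values above 0 and a range from -0.01 to 0.57. Only Ndufs7 of these 7 genes had replicate 6 lowest and replicate 7 highest (14.3%, against 12.9% of all genes). The median log2 difference between the controls was 0.25. Values below are listed for Fear conditioning replicates 2, 3 and 4 and then for Home Cage replicates 6 and 7.

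Ndufv2, an iron-sulfur subunit, measured 949, 839 and 719 CPM in Fear conditioning and 566 and 728 CPM in the controls. The groups overlapped, since replicate 4 lay below Home Cage replicate 7, and the log2 fold change was 0.37 (SE 0.24, limma adjusted p = 0.469). Ndufs7, which holds the cluster next to the quinone site, measured 422, 322 and 339 CPM against 265 and 489 CPM. Its controls enclosed the Fear conditioning libraries, and the log2 fold change of -0.01 (SE 0.31) turned to just above 0 with TMM scaling. Ndufs8, another iron-sulfur subunit, measured 378, 312 and 296 CPM against 203 and 241 CPM. Here the groups did not overlap, and the log2 fold change was 0.56 (SE 0.22, limma adjusted p = 0.283). Ndufv1, which binds NADH and the flavin, measured 321, 339.7 and 296 CPM in Fear conditioning, 300.2 CPM in Home Cage replicate 6 and 154 CPM in replicate 7. Its log2 fold change, 0.57 (SE 0.32), was the highest of the core genes, and it rested on the single low control. Ndufs1, the largest subunit, chosen after its values were seen, measured 145, 170 and 153 CPM against 159 and 150 CPM. Both controls lay inside the Fear conditioning range.

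The accessory subunits of complex I, small proteins around the core that are needed for assembly and stability, followed the pattern of the controls. Of 29 genes, 19 had Home Cage replicate 6 lowest and replicate 7 highest (65.5%, against 12.9% of all genes). Replicate 7 was above replicate 6 for 27 (93.1%, against 43.3%). The median log2 difference between the controls was 1.51, whereas the median log2 fold change between groups was -0.15 (9 values above 0, 20 below). Only Ndufa9 was higher in all 3 Fear conditioning libraries than in both controls (3.45%, against 20.2% of all genes).

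Ndufa1, a small membrane subunit with the widest gap of this role, was chosen after its values were seen. It measured 517, 349 and 340.3 CPM in Fear conditioning, 163 CPM in Home Cage replicate 6 and 1172 CPM in replicate 7. The control values differed by 7.18-fold and the Fear conditioning libraries lay between them. Ndufb10 and Ndufb5 belong to the membrane arm. Ndufb10 measured 712, 582 and 541 CPM against 356 and 705 CPM, with groups that overlapped and a log2 fold change of 0.28 (SE 0.34). Ndufb5 measured 576, 449 and 459.7 CPM against 281 and 968 CPM, with the controls on both sides. Ndufc2, a further membrane arm subunit, measured 268, 189 and 193 CPM against 191 and 601 CPM. Its log2 fold change of -0.66 (SE 0.49, limma adjusted p = 0.513) was the lowest of the role and rested on replicate 7, since replicate 6 lay within the Fear conditioning range. Ndufb4, likewise in the membrane arm, measured 108, 70.9 and 71.1 CPM against 73.3 and 171 CPM, again with replicate 6 inside that range. Ndufa9, a subunit near the junction of the arms of the complex, measured 329, 334 and 317 CPM against 292 and 216 CPM. Its groups did not overlap, and the log2 fold change was 0.38 (SE 0.22, limma adjusted p = 0.426).

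The 4 complex I assembly factors, which help to build the complex but are not part of it, showed another order. All 4 had log2 fold changes above 0 (median 0.42), and the median log2 difference between the controls was -0.16. None had replicate 6 lowest and replicate 7 highest (12.9% of all genes) or the opposite order (19.9%). For 3 of the 4, all Fear conditioning libraries were above both controls, as they were for 20.2% of all genes. Ndufaf1, a factor for the membrane arm, measured 52.9, 46.4 and 45.9 CPM against 31.4 and 11.5 CPM. The groups did not overlap, and the log2 fold change of 1.29 (SE 0.47, limma adjusted p = 0.257) did not pass. Ndufaf4, a factor for the early steps whose promoter site is printed above, measured 90.8, 101 and 111 CPM against 71.5 and 80.4 CPM. Its groups also stood apart, with a log2 fold change of 0.40 (SE 0.23, limma adjusted p = 0.415). Ndufaf3, which binds Ndufaf4, measured 137, 109.9 and 93.3 CPM against 88.2 and 99.6 CPM, and its groups overlapped.

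Complex II, the succinate dehydrogenase of the citric acid cycle and the only complex here with no mitochondrially encoded subunit, had a median log2 difference of 0.10 between the controls and a median log2 fold change of 0.09. Sdha, the flavoprotein, measured 528, 665 and 543 CPM against 604 and 645 CPM. Both controls lay inside the Fear conditioning range, and the log2 fold change was -0.12 (SE 0.22). Sdhb, the iron-sulfur subunit, measured 593, 506 and 437 CPM against 398 and 428 CPM. Its groups did not overlap, and the log2 fold change was 0.30 (SE 0.22, limma adjusted p = 0.522). Sdhd, a membrane anchor, measured 318, 294 and 296 CPM against 251 and 174 CPM, again without overlap, with a log2 fold change of 0.53 (SE 0.23, limma adjusted p = 0.321). The second anchor, Sdhc, was the 1 gene of the 4 with the controls on both sides, at 81.4 and 324 CPM around 124 to 168 CPM.

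Complex III, which passes electrons from ubiquinol to cytochrome c, held members of both kinds. Replicate 6 was lowest and replicate 7 highest for 6 of its 9 genes (66.7%, against 12.9% of all genes). No gene had all Fear conditioning libraries above both controls, as 20.2% of all genes did. Uqcrq, a small membrane subunit, measured 609.9, 392 and 388 CPM against 289 and 1098 CPM. The controls enclosed the Fear conditioning libraries, and the log2 fold change of -0.31 (SE 0.57) was the lowest of the complex. Uqcrc1, one of the core proteins that face the matrix, measured 589.7, 775 and 564 CPM against 778 and 274 CPM. Its controls enclosed the Fear conditioning libraries in the opposite order, with replicate 7 lowest, and the log2 fold change was 0.46 (SE 0.45). Uqcrc2, the gene of the other core protein, chosen after its values were seen, was also lowest in replicate 7, at 155 CPM against 268 CPM in replicate 6 and 256 to 297 CPM in Fear conditioning.

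Complex IV, the cytochrome c oxidase, had the widest gap between the controls among the complexes, with a median log2 difference of 1.77. Replicate 6 was lowest and replicate 7 highest for 11 of 16 genes tested (68.8%, against 12.9% of all genes). The median log2 fold change between groups was -0.25. Cox4i1, the widespread form of subunit 4, measured 1835, 1363 and 1459 CPM against 932 and 1880.1 CPM. Cox6a1, the widespread form of subunit 6a and a gene with a promoter site printed above, measured 1734, 957 and 1564 CPM against 764 and 2399 CPM. In both genes the controls enclosed the Fear conditioning libraries, with log2 fold changes of 0.22 (SE 0.36) and 0.02 (SE 0.53), the latter below 0 with quantile normalisation, edgeR and DESeq2. Cox8a (ENSMUSG00000035885), the widespread form of subunit 8, measured 1096, 657 and 687 CPM against 456 and 2706 CPM. Cox7c, a small membrane subunit chosen after its values were seen, measured 434, 295 and 307 CPM against 176 and 1347 CPM. The controls of these genes differed by 5.94-fold and 7.66-fold, and the highest and lowest Fear conditioning libraries by 1.67-fold and 1.47-fold. Ndufa4 measured 1258, 844 and 903 CPM against 609 and 2261 CPM, in the same order. Cox7a2l (ENSMUSG00000024248), which helps complexes III and IV to form supercomplexes, measured 255, 210.1 and 207 CPM against 146 and 147 CPM. Here the controls lay close together and below every Fear conditioning library, and the log2 fold change was 0.60 (SE 0.21, limma adjusted p = 0.248).

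The ATP synthase, whose rotor is turned by returning protons, had a median log2 fold change of -0.11, with 7 values above 0 and 8 below. Replicate 7 was above replicate 6 for all 15 genes, as it was for 43.3% of the whole set tested. The controls lay on both sides in this order for 10 (66.7%, against 12.9% of all genes). Atp5b, the catalytic beta subunit, measured 1494, 1444 and 1503 CPM against 1299 and 1386 CPM. The groups did not overlap but were close, with a log2 fold change of 0.14 (SE 0.22). Atp5a1, the alpha subunit, measured 1375, 1302 and 1296 CPM against 915 and 1529 CPM, with the controls on both sides. Atp5d, the delta subunit of the central stalk, measured 711, 568 and 579 CPM against 328 and 512 CPM. Its groups did not overlap, and the log2 fold change of 0.59 (SE 0.27, limma adjusted p = 0.335) was the highest of the enzyme. Atp5g3, 1 of 3 genes for the c subunit of the membrane ring, measured 683, 418 and 550.0 CPM against 346 and 1807 CPM. Its controls differed by 5.23-fold and enclosed the Fear conditioning libraries, with a log2 fold change of -0.55 (SE 0.67).

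**Figure D3:**
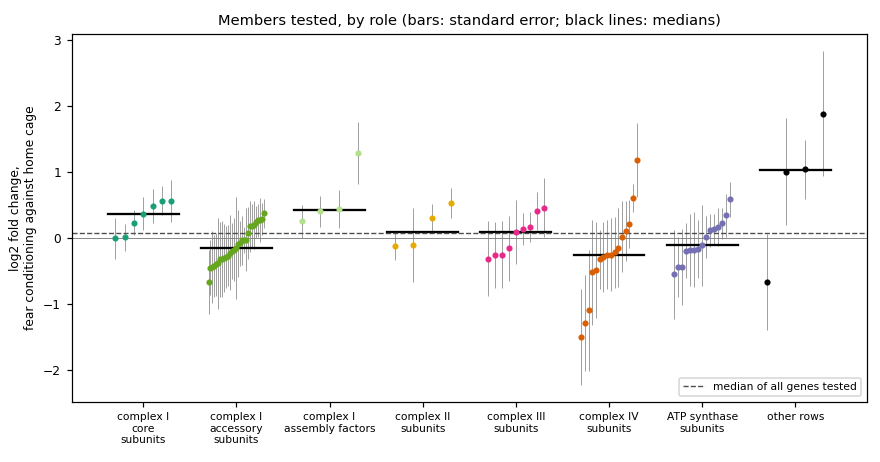
Log2 fold change, Fear conditioning against Home Cage, of the 88 genes tested, by role, with the standard error of limma as a vertical bar, the median of each role as a black line and the median of all genes tested (0.08) as a dashed line. Medians ran from -0.25 for complex IV to 0.42 for complex I assembly factors and 1.03 for the rows that are not chain subunits.

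In the plot of fold changes by role, complex I core subunits and assembly factors lay mostly above 0 (6 of 7 and 4 of 4 genes), and accessory and complex IV subunits mostly below (20 of 29 and 11 of 16). The 4 tested rows that are not chain subunits had a median log2 fold change of 1.03, which came from Cox4nb, Atp5sl and Atp5s. Atp5sl measured 67.6, 59.0 and 66.4 CPM against 50.8 and 18.4 CPM, without overlap, with a log2 fold change of 1.04 (SE 0.45, limma adjusted p = 0.314). Cox4nb, a protein of the endoplasmic reticulum membrane, measured 75.6, 94.7 and 84.0 CPM against 77.7 and 5.80 CPM. The fold change of Cox4nb rested on replicate 7 alone, since replicate 6 lay within the Fear conditioning range. Leaving out these rows and the assembly factors, the 80 structural subunits tested had a median log2 fold change of -0.10. Of them, 48 had replicate 6 lowest and replicate 7 highest (60.0%, against 12.9% of all genes).

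Isoform genes were compared with their partners within a library, where scaling cancels, as percentages of CPM per kilobase. Of the pairs considered, 6 had over 3 reads for both genes in every library and were tested. The exact permutation test was two-sided, and its 10 splits allow no p under 0.1, so no pair could pass. Cox6a2 (ENSMUSG00000030785), the heart and muscle form of subunit 6a, was 0.562%, 0.399% and 0.329% of Cox6a1 in Fear conditioning and 1.32% and 1.48% in the controls. All 3 Fear conditioning ratios were below both controls, which lay close together, and the log2 ratio differed by -1.74 (exact permutation p = 0.1, adjusted p = 0.2). In CPM, Cox6a2 measured 6.59, 2.58 and 3.48 against 6.85 and 24.0, so the separation of the levels in replicate 2 from Home Cage replicate 6 was small, with a log2 fold change of -1.50 (SE 0.73, limma adjusted p = 0.356). Cox6b2, the testis form of subunit 6b, was 0.0685%, 0.0342% and 0.185% of Cox6b1 against 0.222% and 0.495%. The log2 ratio differed by -2.13 (exact permutation p = 0.2, adjusted p = 0.24), but Cox6b2 had only 4 to 19 reads in the Fear conditioning libraries and 25 and 122 in the controls. Ndufa4l2 was 0.119%, 0.0906% and 0.121% of Ndufa4 against 0.126% and 0.383%. The groups did not overlap, the log2 ratio differed by -1.01 (exact permutation p = 0.1, adjusted p = 0.2), and the difference came mostly from Home Cage replicate 7.

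**Figure D4:**
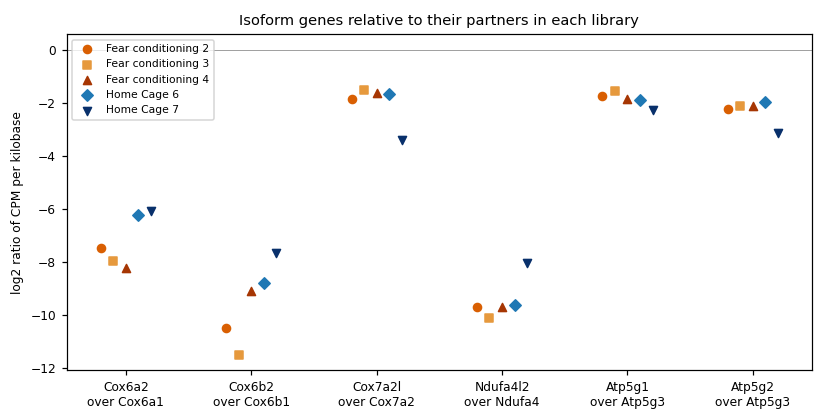
Log2 ratio of the CPM per kilobase of an isoform gene to that of its partner in each library, for the 6 pairs with over 3 reads for both genes in every library. For Cox6a2 over Cox6a1 the 3 Fear conditioning libraries lie between -8.25 and -7.47 and the controls at -6.24 and -6.08, while for Cox7a2l, Ndufa4l2, Atp5g1 and Atp5g2 Home Cage 7 lies furthest from the rest.

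Cox7a2l, a relative of subunit 7a, reached 27.6%, 34.8% and 32.2% of Cox7a2 in Fear conditioning, 31.7% in Home Cage replicate 6 and 9.47% in replicate 7. Replicate 7 stood apart, and the log2 ratio difference of 0.86 (exact permutation p = 0.2, adjusted p = 0.24) became -0.01 without it. The genes Atp5g1, Atp5g2 and Atp5g3 encode the same mature c subunit behind different import sequences. Atp5g1 was 29.7%, 34.2% and 27.4% of Atp5g3 in Fear conditioning and 26.8% and 20.4% in the controls, a log2 difference of 0.37 without overlap (exact permutation p = 0.1, adjusted p = 0.2). These percentages depend on the deposited lengths, 5133 bases for Atp5g1 and 2177 for Atp5g3, whereas the log2 difference between groups does not. Atp5g2 was 21.1%, 23.2% and 23.0% against 25.8% and 11.5%, with the controls on both sides, and its log2 difference of 0.38 (exact permutation p = 0.6, adjusted p = 0.6) became -0.20 without replicate 7. Members of such pairs, and pseudogenes such as Atp5l2, resemble each other in sequence, so their values are uncertain where the counting split shared reads.

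Genes listed at 0 in any library were all low members of complex IV. Cox8b had 0, 4 and 0 reads in Fear conditioning and 69 and 14 reads in the controls, and Cox7a1 had 24, 18 and 9 reads against 22 and 0. Both were below the mean of 1 CPM needed for the test. Cox7b2, a close relative of Cox7b known from testis, measured 3.03, 1.54 and 1.79 CPM in Fear conditioning, 0.801 CPM in Home Cage replicate 6 and 0 in replicate 7, where 0 reads allow up to 0.158 CPM. Its groups did not overlap, and the log2 fold change was 1.19 (SE 0.56, limma adjusted p = 0.343).

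The gap between the controls was related to the deposited gene length. Of 32 members up to 1000 bases long, 24 (75.0%) had replicate 6 lowest and replicate 7 highest, and their median log2 difference between the controls was 1.68. Among the 7 members over 4000 bases the count was 3 (42.9%) and the median 0.30. All genes up to 1000 bases had this order in 29.1% of cases with a median of 0.85, and those over 4000 bases in 11.0% with a median of -0.24. Short genes thus leaned the same way in general, and in each length class the members leaned further. Across genes, which are not independent replicates and share libraries, the difference correlated with log length at r = -0.38 (Spearman rho -0.39) for 87 members and at r = -0.07 (rho -0.05) for 13551 genes. The part of gene length in the difference between the controls was not tested.

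**Figure D5:**
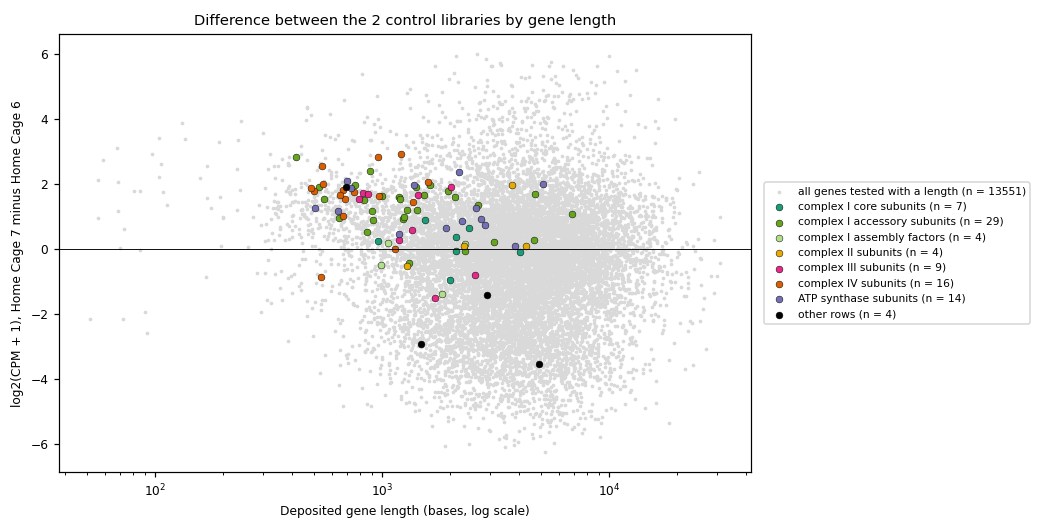
Log2 difference in CPM + 1 between Home Cage 7 and Home Cage 6 against deposited gene length (log scale) for 87 members with a length, coloured by role, and 13551 genes in grey. Members under 1000 bases lie mostly between 1 and 3, above most of the grey points, while longer members spread from -3.53 to 2.93.

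The same counts were made in other families of housekeeping genes. Of 82 cytosolic ribosomal protein genes tested, 24 (29.3%) had replicate 6 lowest and replicate 7 highest. So did 20 of 75 mitochondrial ribosomal protein genes (26.7%) and 3 of 36 proteasome subunits (8.33%). The share was 49 of 88 for respiratory chain genes (55.7%) and 12.9% for all genes. The median log2 difference between the controls was 0.86, 0.43 and -0.13 in these families, below the 1.20 of the respiratory chain. Mitochondrial ribosomal protein genes, whose products serve the same organelle, were higher in all Fear conditioning libraries than in both controls for 25 of 75 genes (33.3%), beside 20.2% of all genes and the 14 of 88 respiratory chain genes (15.9%). These are descriptions of the lists, and no test compared them.

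Other genes of the pathway, outside the name rule, also gave 0 calls with limma, where 0.0% of all genes were called. The lists were 29 assembly factors and cytochrome c genes, 19 regulators of mitochondrial biogenesis, 18 citric acid cycle genes, 16 of glycolysis, 10 carriers and 6 subunits or assembly factors under other names. At an unadjusted p under 0.05 they held 2, 1, 1, 2, 2 and 1 higher genes and 1, 0, 0, 2, 2 and 0 lower genes, where all genes had 9.49% higher and 7.32% lower. Their median log2 fold changes were 0.07, 0.44, 0.14, 0.20, 0.11 and 0.41. Cycs, the somatic cytochrome c, measured 323, 286 and 252 CPM against 177 and 441 CPM, in the order seen for most subunits. Of the 19 regulators, 4 had that order (21.1%, against 12.9% of all genes), namely Tfam, Gabpa, Pprc1 and Sirt1. The opposite order was seen for 6 (31.6%, against 19.9%), namely Gabpb1, Gabpb2, Esrrg, Polg, Polg2 and Yy1. These genes are named after their values were seen. The median log2 difference between the controls over the 19 was -1.24. Nrf1, which encodes NRF-1, measured 22.2, 32.3 and 21.4 CPM against 14.5 and 22.3 CPM, with replicate 6 lowest and replicate 7 within the Fear conditioning range. In glycolysis, Ldhb, a lactate dehydrogenase subunit, had a log2 fold change of 0.66 (SE 0.24, limma adjusted p = 0.259) and Hk1, the hexokinase that starts the pathway, of -0.75 (SE 0.24, limma adjusted p = 0.230). None of the 16 glycolytic genes had replicate 6 lowest and replicate 7 highest. The 13 subunits encoded by mitochondrial DNA were looked for among the genes listed, and 0 were found, so they were not analysed here.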

How the data were processed

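TRAP RNA of 5 libraries (3 Fear conditioning, 2 Home Cage, grouped by the labels) was analysed. The authors deposited a normalised signal per gene and library, with gene lengths. The submitters' processing notes name DESeq and the build mm8, and the study's methods call the software Tuxedo DESeq without naming its programs. Which aligner was run, the annotation and the use of strand are not given in the sources used here. Dividing a library's values by its lowest nonzero value gave whole numbers for 100% of genes (within 0.01), used as recovered reads. Depth sets the precision of each value, at the floor of 3 reads. Groups were compared with limma 3.58.1 (lmFit, eBayes with trend) on log2(value + 1). Genes needed a mean of at least 1, tests were two-sided, and p-values were adjusted after Benjamini and Hochberg over all genes tested. A fold change on this scale understates that of low genes. The planned design had assumed either counts or a normalised unit. Libraries are separate pools of animals. Named genes were, per role, the 2 with the highest mean and those with the highest and lowest log2 fold change, all isoform pairs, the 5 smallest p in each direction, genes listed at 0, and in each other list the genes with the highest and lowest log2 fold change where needed. Genes and lists were chosen with earlier results of these data known. One marker list is not reported here. Ribosomal protein lists leave out Rps6k and Rps19bp names and the proteasome list takes only Psm names of subunits. Alternatives were other pseudocounts, filters, scalings (quantile, TMM), cutoffs, structural subunits only, edgeR 4.0.16 and DESeq2 1.42.0 on recovered reads, and each library left out. The library order and overlap counts under other scalings, and TMM values of named genes, were chosen after seeing the data. The fits were tested on simulated data. Software was Python 3.11.15 with scipy 1.17.1, pandas 2.3.3, numpy 2.4.6 and matplotlib 3.10.9, and R 4.3.3.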

Additional observations from a re-analysis of the deposited data

How the results depend on the processing

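No paired analysis was possible because the groups share no replicate number. No member was called under another pseudocount, filter, scaling, cutoff or tool, or with only structural subunits. Leaving out 1 library at a time, the count of members called ranged from 0 to 53 and their median log2 fold change from -0.67 to 0.54, with both ends set by the control libraries. Members lower in all Fear conditioning libraries than in the controls numbered 0 of 88 with TMM scaling (15.2% of all genes). They numbered 2 without any 1 Fear conditioning library (17.9% to 18.9% of all genes), 54 without Home Cage replicate 6 (37.3%) and 3 without replicate 7 (40.7%). Members higher numbered 15 to 19 without any 1 Fear conditioning library (22.4% to 23.9%). They numbered 19 without Home Cage replicate 6 (50.2%) and 75 without replicate 7 (37.3%). The log2 ratio difference ranged, with a library left out, from -0.012 to 1.73 for Cox7a2l over Cox7a2 and from -0.20 to 0.97 for Atp5g2 over Atp5g3. Over the 35 named genes tested, 4 values changed sign with another pseudocount, scaling or tool: Cox6a1 with quantile normalisation (-0.016), edgeR (-0.17) and DESeq2 (-0.21), and Ndufs7 with TMM (0.011). With a library left out, 22 values in 18 genes changed sign and 21 values passed the threshold. The cause was not tested. The ranges of these 18 genes were Atp5a1 from -0.21 to 0.53, Atp5g1 from -1.17 to 0.82, Atp5g2 from -0.76 to 0.42, Atp5g3 from -1.74 to 0.64, Cox4i1 from -0.29 to 0.72, Cox6a1 from -0.80 to 0.85, Cox6b1 from -1.18 to 0.61, Cox7a2 from -1.13 to 0.62, and Cox8a from -1.77 to 0.79. Further ranges were Ndufa4 from -1.20 to 0.70, Ndufa4l2 from -2.52 to 0.33, Ndufb10 from -0.22 to 0.77, Ndufb4 from -1.05 to 0.16, Ndufb5 from -0.98 to 0.80, Ndufc2 from -1.49 to 0.16, Ndufs7 from -0.45 to 0.43, Uqcrc1 from -0.29 to 1.21, and Uqcrq from -1.28 to 0.65. With 2 control libraries, differences of the size between them cannot be resolved, and values of Cox6b2, Cox7a1, Cox7b2 and Cox8b rest on few reads.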
